A study of Homo sapiens with 6 samples.

Results

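Peaks of CTCF and SMC1 were examined at 39 genes of the actin cytoskeleton and of mechanosensing, out of 19675 protein-coding genes with a known strand. The genes were chosen by name, from actins and myosins to the targets of YAP and TEAD, by a rule that uses no measured value. Earlier results of these data were known when they were chosen. For each gene the window was its GRCh38 span plus 10 kb on each side, and all peaks overlapping it were taken from each of the 6 deposited lists. This gave 407 different peaks. A peak was assigned to the 5′ end when its summit, the middle of its region of highest signal, lay within 1 kb of the outermost annotated start of the gene.

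The cells were IMR90, a strain of human lung fibroblasts that stops dividing after serial passage (all sample titles begin with I79, which the labels do not explain), and the assay was CUT&Tag, in which an antibody tethers a transposase to chromatin and the DNA cut there is sequenced. CTCF and SMC1 were each profiled in low-passage control cells, in low-passage cells treated with inflachromene (ICM, a small molecule that binds HMGB proteins) and in high-passage cells that had entered replicative senescence. Each of the 6 groups is 1 library, so there was no replicate spread, no difference between conditions could be tested, and all values below are descriptions of single libraries. The p number in the sample titles was 21 for CTCF control, 16 for CTCF with ICM, where the title also gives 6 days of treatment, and 34 for CTCF senescent. For SMC1 it was 16, 16 and 34. No condition is written in the p 34 titles, and the series design, which has 1 high-passage senescent sample, was used to place them. For CTCF the p number differed between control and ICM, so that passage and treatment cannot be told apart there. The cell type could not be checked by marker genes, since these peaks do not measure expression.

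With peaks on mitochondrial DNA left out, the 3 CTCF lists held 4673 (control), 6728 (ICM) and 8577 (senescent) peaks. The 3 SMC1 lists held 14883, 17809 and 12927. The lists were not on a common signal scale and depth is unknown, so the strength of a peak is given as its percentile by total signal within its own list, where 100 is the strongest. A peak can be absent from a list because its signal lay under the top 1% that the authors kept, and absence from a list is not absence of the protein.

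CTCF is a DNA-binding protein that marks insulators and domain boundaries. SMC1 is a core subunit of cohesin, the ring complex that extrudes chromatin loops until it meets CTCF, and which is also found at active promoters and enhancers without CTCF. In fibroblasts, actin polymerisation frees the coactivator MRTF, which works with SRF at CArG boxes of many of these cytoskeletal genes, and tension on the cytoskeleton brings YAP to TEAD factors, which bind the hexamer CATTCC and drive genes such as CCN1, CCN2 and ANKRD1.

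Start-site sequence was at hand for 35 of the 39 genes, in 57 windows of 250 bases before to 50 bases after a RefSeq start. The TEAD hexamer, searched on both strands, was in 29.8% of these windows (16 genes) and in 14% of all 35116 windows of the same length. The CArG box, searched by name on both strands, was in 8.77% of them (ACTG1, ACTN1, CNN2, FLNA and TPM4) and in 1.29% of all windows. A core of the CTCF motif, the fixed bases CCA, AG and GGC with 2 free bases between each and the next on either strand, was in 0 of the 57 windows and in 2.41% of all. These matches are letters in a window and not binding sites.

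The 250 bases before the start are shown for MYH9, CCN2, MYH10 and VCL, because each holds the hexamer and each lies under some of the strongest SMC1 peaks of the set. They are written 5′ to 3′ on the strand of the gene (RefSeq, GRCh38.p14), with the hexamer or its reverse complement GGAATG in capitals. The positions are chr22:36387968-36388217 (minus strand) for MYH9, chr6:131951373-131951622 (minus) for CCN2, chr17:8630726-8630975 (minus) for MYH10 and chr10:73997866-73998115 (plus) for VCL.
MYH9: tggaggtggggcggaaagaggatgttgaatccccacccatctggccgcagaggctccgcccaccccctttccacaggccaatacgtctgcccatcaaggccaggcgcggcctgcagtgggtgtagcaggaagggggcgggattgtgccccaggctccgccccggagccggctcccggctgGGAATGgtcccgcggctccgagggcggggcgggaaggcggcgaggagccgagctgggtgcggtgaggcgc
CCN2: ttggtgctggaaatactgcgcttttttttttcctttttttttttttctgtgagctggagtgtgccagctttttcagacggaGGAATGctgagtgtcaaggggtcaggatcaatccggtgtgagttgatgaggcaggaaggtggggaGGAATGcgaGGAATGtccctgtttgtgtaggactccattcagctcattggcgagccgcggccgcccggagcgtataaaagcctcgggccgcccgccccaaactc
MYH10: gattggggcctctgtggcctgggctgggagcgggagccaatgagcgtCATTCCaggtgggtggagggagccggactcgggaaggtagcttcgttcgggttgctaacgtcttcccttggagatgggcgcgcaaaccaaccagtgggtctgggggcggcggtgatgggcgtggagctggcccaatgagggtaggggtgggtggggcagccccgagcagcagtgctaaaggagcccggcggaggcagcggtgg
VCL: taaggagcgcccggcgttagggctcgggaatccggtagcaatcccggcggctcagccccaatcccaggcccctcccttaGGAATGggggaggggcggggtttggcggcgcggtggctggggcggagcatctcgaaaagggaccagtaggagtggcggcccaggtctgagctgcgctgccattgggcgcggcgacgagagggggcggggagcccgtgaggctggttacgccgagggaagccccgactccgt
CCN2 held 3 matches, at -169, -104 and -95 bases from the start, and the other genes shown held 1 each. All 250 bases lay inside SMC1 peaks in each of the 3 conditions for MYH9, MYH10 and VCL. The genes were chosen for strong control SMC1 peaks, so the control coverage is largely set by that choice. For CCN2, SMC1 peaks covered 245 of them in control, 200 in ICM and 250 in senescent cells. CTCF peaks covered the whole CCN2 stretch in control and ICM and 0 bases of it in senescence, and at MYH9 and MYH10 they covered 0 bases in all 3 lists. At VCL they covered all 250 bases in ICM and 0 in control and senescence.

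At the 5′ end, SMC1 was listed at 30 of the 39 genes (76.9%) in control, 27 (69.2%) in ICM and 20 (51.3%) in senescent cells. Over all protein-coding genes the shares were 31.6%, 27.6% and 22.3%. CTCF was listed at the 5′ end of 7 genes (17.9%) in control, 11 (28.2%) in ICM and 5 (12.8%) in senescence, against 8.76%, 12.6% and 9.54% of coding genes. The set thus carried SMC1 at its 5′ ends in a larger share than coding genes in every condition. The CTCF shares rest on few genes, and 8 of the 23 CTCF and 26 of the 79 SMC1 peaks at these 5′ ends also lay within 1 kb of the start of another gene. A divergent or neighbouring gene cannot be told apart from the named one at such peaks.

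**Figure D1:**
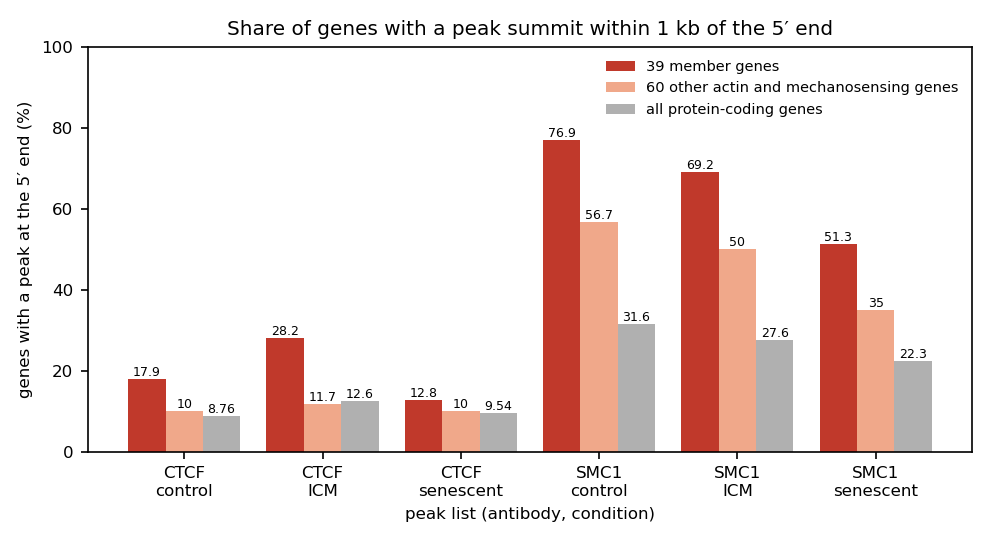
Percent of genes (vertical axis) with a peak summit within 1 kb of the 5′ end in each of the 6 peak lists (horizontal axis), for the 39 genes, 60 other actin and mechanosensing genes and all protein-coding genes. Each bar is 1 library, so there is no error bar. The SMC1 bars of the 39 genes are the tallest in each condition, at 76.9%, 69.2% and 51.3%.

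In the wider windows, SMC1 peaks were found at 39, 37 and 35 of the 39 genes in control, ICM and senescent cells, against 52.4%, 52.1% and 45.6% of coding genes. CTCF peaks were found at 20, 25 and 20 genes, against 25.6%, 33.7% and 35.6%. The windows of the set were not longer than usual, with a median of 36329 bp (range 21016 to 279231) against 44764 bp for coding genes. Per 100 kb of window the set held 1.15 CTCF peaks in control, 1.54 in ICM and 1.42 in senescent cells, against 0.267, 0.378 and 0.452 in the windows of all coding genes. For SMC1 the densities were 3.84, 4.51 and 3.64, against 0.816, 0.921 and 0.688. Senescent CTCF was therefore the list in which the genome-wide density was highest but the density at these genes was not.

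The windows of MYL6 and TAGLN held no SMC1 peak in the ICM list, and those of MYL6, MYL12B, PDLIM5 and TMSB10 held none in the senescent list. In 11 of the 39 windows, against 59.1% of those of coding genes, no CTCF peak was listed in any condition (ACTG1, ACTN4, MYH10, MYL6, MYL12B, CNN1, CNN2, CALD1, PDLIM5, PFN1 and TMSB10).

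**Figure D2:**
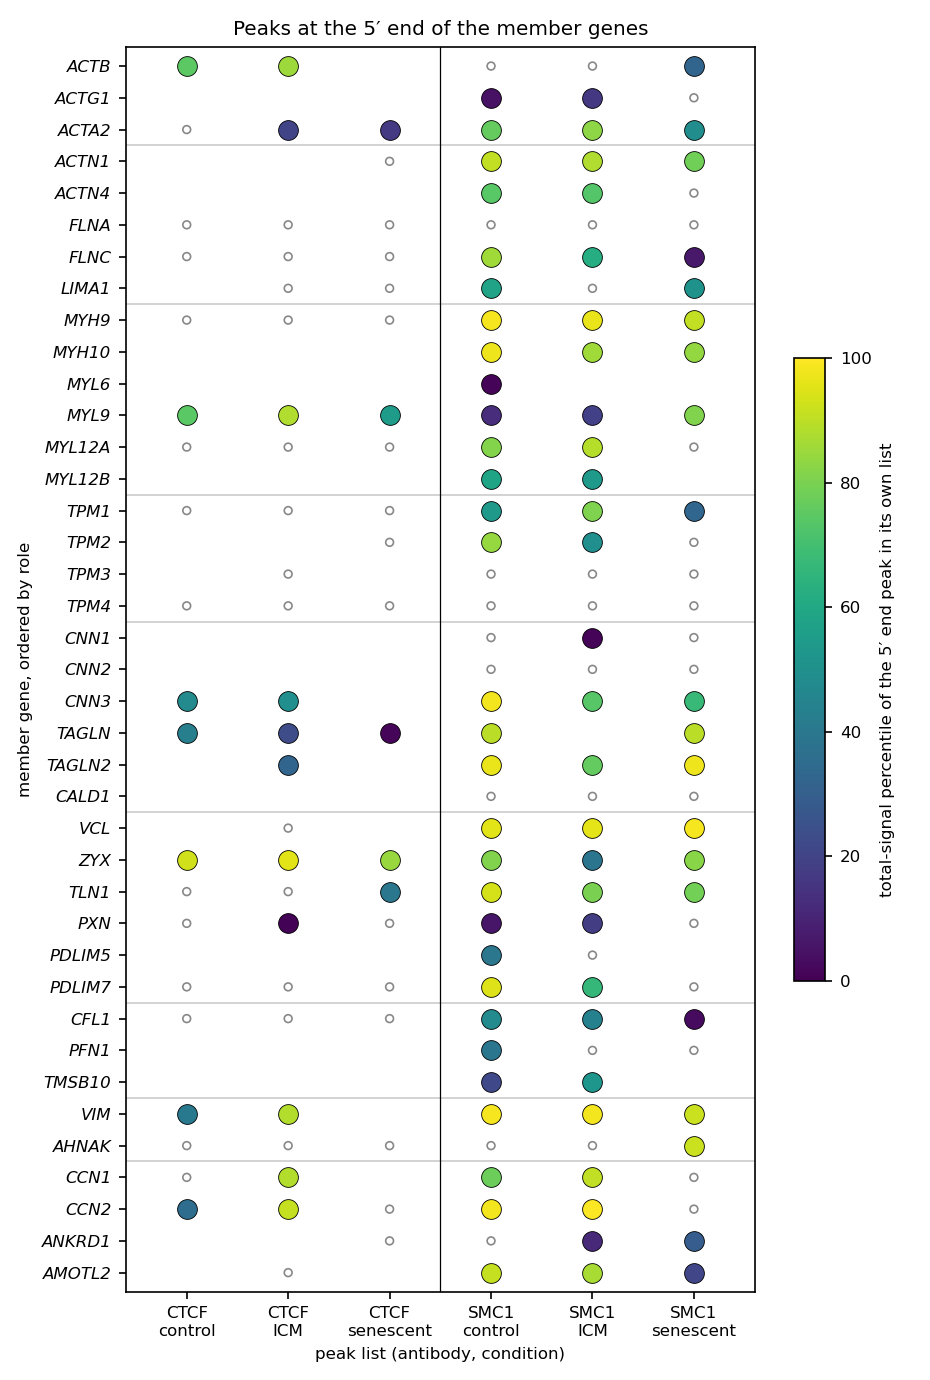
Each row is 1 of the 39 genes, ordered by role, and each column 1 of the 6 peak lists. A filled circle is a 5′ end peak, coloured by its total-signal percentile in its own list (0 to 100), a small open circle is a gene with peaks elsewhere in its window, and a blank has no listed peak. SMC1 columns are filled for 30, 27 and 20 genes, and CTCF columns for 7, 11 and 5.

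Among the 3 actins, SMC1 was at the 5′ end of 2 genes in every condition, but not of the same 2. ACTB encodes the ubiquitous cytoplasmic beta-actin, and its 5′ end was in the CTCF lists of control (chr7:5527568-5531467, percentile 74.8) and ICM (85.5) but not in the senescent CTCF list. Its SMC1 peak at the 5′ end was listed in senescence alone (chr7:5530297-5531576, percentile 32.1). The antibodies were thus listed there in different conditions.

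ACTG1, the gamma counterpart, had a weak SMC1 peak at the 5′ end in control (chr17:81512299-81513162, percentile 4.66) and in ICM (chr17:81513042-81513923, percentile 16.4). In senescence its nearest summit lay at -1024 bp, with a percentile of 80.5, which is just outside the 1 kb limit. ACTA2, the smooth-muscle actin that marks myofibroblasts, had SMC1 at its outermost 5′ end in all conditions (control chr10:88990131-88991492), at percentiles 76.3, 83.0 and 48.5. That end is shared with starts of FAS. A control SMC1 peak 33 bp from an internal ACTA2 start (percentile 32.1) had no counterpart in the other lists. CTCF was listed at the outer ACTA2 end in ICM (chr10:88989412-88992375, percentile 20.3) and senescence (16.7) and not in control.

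SMC1 was at the 5′ end of 4 of the 5 actin cross-linker genes in control and 3 in ICM and senescence. ACTN1, an alpha-actinin that bundles stress fibres and anchors them at adhesions, had SMC1 at its 5′ end (control chr14:68978747-68979872) at percentiles 90.7, 88.1 and 78.3, with summits at -125, -170 and -172 bp. A further summit in the first kilobases of the gene lay at 1537 bp in control (percentile 92.2), 1412 bp in ICM (77.6) and 1540 bp in senescence (36.4). These peaks had no CTCF counterpart, and the single CTCF peak of ACTN1 was senescent and far inside the gene (67497 bp, percentile 15.6).

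ACTN4, the other non-muscle alpha-actinin, had SMC1 at the 5′ end in control (chr19:38647189-38647939, percentile 74.2) and ICM (73.4) and not in senescence. A peak inside the gene, at about the same place in all 3 lists (64279, 64253 and 64319 bp), was kept at percentiles 81.6, 90.1 and 75.5. The loss from the list was thus at the 5′ end and not along the whole gene. FLNA, a filamin that cross-links actin into networks, had no peak of either antibody with its summit within 1 kb of the 5′ end. Its closest were CTCF summits at 1078, 1137 and 1134 bp, with percentiles 33.9, 11.8 and 50.9, and coinciding SMC1 summits at 1069 bp in control (38.7) and 1135 bp in senescence (16).

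FLNC, the filamin of muscle, had a broad SMC1 peak of 2974 bp at the 5′ end in control (chr7:128829354-128832327, percentile 85.7). The 5′ end peaks of ICM (707 bp, percentile 61.8) and senescence (845 bp, percentile 6.4) were narrower. By highest signal the percentiles were 25.3, 41.5 and 11.8. The senescent summit was on the other side of the start, at 233 bp against -768 bp in control. The control peak also overlapped further peaks of ICM and senescence, with summits at 1007 and 2197 bp. Downstream of FLNC, a CTCF and an SMC1 peak lay at starts of ATP6V1F and FLNC-AS1 in all conditions. LIMA1 (EPLIN), which steadies actin filaments, had SMC1 at the 5′ end in control (chr12:50282580-50284085, percentile 58.0) and senescence (50.9) and not in ICM. Its body peak at 96065 bp was at the same base in all 3 SMC1 lists, with percentiles 86.7, 82.3 and 83.7.

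All 6 myosin II genes had SMC1 at the 5′ end in control, 5 had it in ICM and 3 in senescence. MYH9, the heavy chain of non-muscle myosin IIA, had one of the highest ranks of the set at its 5′ end (control chr22:36387704-36388575), with percentiles 98.8, 96.5 and 90.7 and summits at -167, -167 and -169 bp. The position was therefore the same within 2 bp while the rank was lowest in senescence. In its window, 6 SMC1 peaks were listed in control, 8 in ICM and 10 in senescence. The senescent summits at 16924, 24704, 26723, 34809 and 52712 bp coincided with none in the other lists. The peak with its summit at 34809 bp still overlapped SMC1 peaks of control and ICM.

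MYH10, the heavy chain of myosin IIB, had its 5′ end peak (control chr17:8630463-8631675) at percentiles 97.3, 85.6 and 83.9, and no other peak of either antibody in a window of 176514 bp. The regulatory light chain gene MYL9 was 1 of 2 members, with ZYX, listed by both antibodies at the 5′ end in all 3 conditions, as were 4.67% of coding genes. Its CTCF peak (control chr20:36540714-36543355) stood at percentiles 74.6, 88.2 and 54.9, and its SMC1 peak (control chr20:36541832-36542466) at 12.7, 19.1 and 80.9. The summits of both antibodies coincided in each condition.

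MYL12A and MYL12B, neighbouring genes for near-identical regulatory light chains, had SMC1 at the 5′ end in control and ICM and not in senescence. The peak of MYL12A (control chr18:3247233-3248349) stood at percentiles 81.3 and 88.8, and that of MYL12B (control chr18:3261362-3262497) at 58.4 and 53.7. The MYL12A summits also lay within 1 kb of a start of the coding gene MYOM1. Upstream of MYL12A a CTCF summit (-1330, -1319 and -1319 bp) coincided with an SMC1 summit in all 3 conditions, with CTCF percentiles 42.2, 53.8 and 61.7 and SMC1 percentiles 54.5, 89.3 and 3.05. MYL6, the essential light chain, had a single listed peak, an SMC1 peak in control at the very bottom of its list (chr12:56158172-56159054, percentile 0.82).

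**Figure D3:**
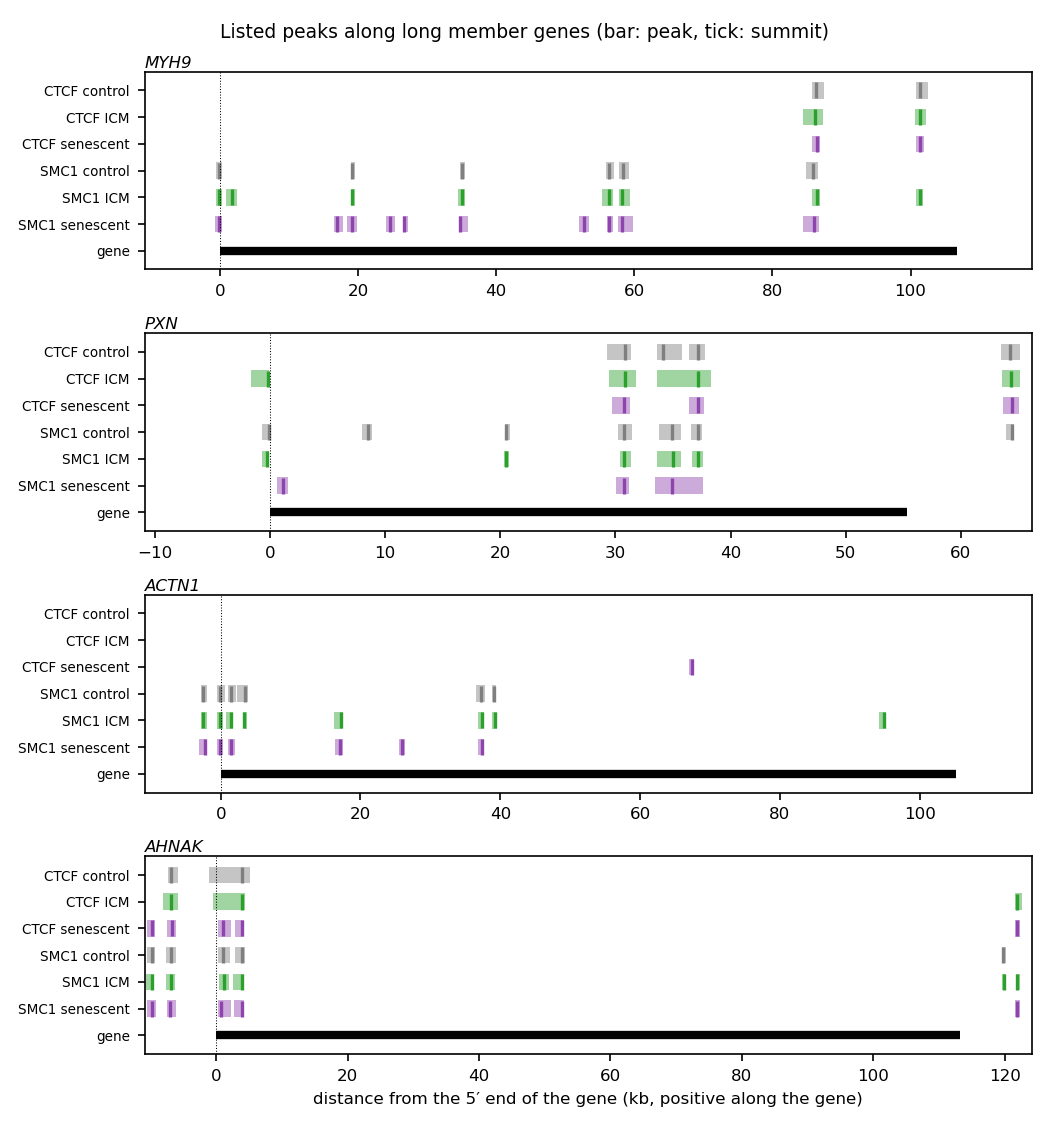
Listed peaks along MYH9, PXN, ACTN1 and AHNAK, by distance from the 5′ end in kb (horizontal axis) and by peak list (rows). Shaded bars are peaks, ticks their summits and the black bar the gene. The 5′ end SMC1 peak of MYH9 lies at the same place in all 3 conditions, and its senescent row has 10 SMC1 peaks against 6 in control.

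Tropomyosins, which coil along actin filaments and set which myosins can bind, had SMC1 at the outermost 5′ end of 2, 2 and 1 of 4 genes. TPM1 had SMC1 at its outermost 5′ end (control chr15:63041948-63043083) at percentiles 53.7, 80.7 and 32.6, and a stronger SMC1 peak near an internal start, at 5483, 5484 and 5525 bp, at 85.8, 97.2 and 94.2. A CTCF peak lay beside the internal start in all conditions (percentiles 80.4, 93.4 and 69.8). TPM2 had SMC1 at the 5′ end in control (chr9:35689295-35691531, percentile 84.2) and ICM (49.4) and not in senescence. Its window overlaps that of TLN1, so both genes count these peaks.

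TPM3 and TPM4 had none at the outermost start, but both had SMC1 within 1 kb of an internal RefSeq start in all 3 lists. For TPM3 the percentiles there were 68.7, 90.2 and 80.3, and for TPM4 they were 37.4, 26.1 and 2.23. Downstream of TPM4, at a start of RAB8A, CTCF stood at 85.9, 92.3 and 89.2 at the same place within 3 bp.

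In the calponin family, CNN1, the smooth-muscle calponin, had SMC1 at the 5′ end in the ICM list alone and near the bottom of it (chr19:11538137-11539209, percentile 1.13). CNN2 had none, and all but 1 of its window peaks lay within 1 kb of a start of ABCA7 or TMEM259. CNN3, the widely expressed calponin, had SMC1 in all 3 lists (control chr1:94925426-94927941), at percentiles 98.1, 73.7 and 67.2, beside CTCF in control (chr1:94925260-94928118, percentile 47.6) and ICM (49.5). The senescent window of CNN3 held no CTCF peak. The non-coding gene CNN3-DT starts within 1 kb of these summits.

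TAGLN (SM22), an early smooth-muscle actin-binding protein and an SRF target, was listed by SMC1 in 2 of the 3 conditions. Its 5′ end peak ranked high by total signal in the control list (chr11:117198509-117200304, percentile 89.5) and the senescent list (89.8). By highest signal the percentiles were 73.7 and 30.2. The ICM window of TAGLN held no SMC1 peak at all. CTCF was listed there in all 3 conditions (control chr11:117196692-117200617) at percentiles of 42.7, 23 and 1.49. TAGLN2 had SMC1 at percentiles 96.8, 75.9 and 97.5 (control chr1:159922990-159926011), again lowest in ICM, and CTCF in ICM alone (chr1:159923783-159926048, percentile 32.4). CALD1, whose caldesmon blocks myosin on filaments, had no peak at its outermost end. At 68030, 68085 and 68014 bp inside, which is 105, 50 and 121 bp from a RefSeq start, it had SMC1 at percentiles 95.3, 95.1 and 16.1.

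The 6 focal adhesion genes had SMC1 at the 5′ end in 6, 5 and 3 cases. VCL, the vinculin gene, was listed in all conditions with the summit at -87 bp in each (control chr10:73997366-73998434) and at percentiles 95.5, 96.0 and 98.6. Its rank by total signal was highest in senescence, where the peak was 3309 bp wide against 1069 bp in control. That senescent peak also covered the place of a further peak in control and in ICM, with summits at 1213 and 1228 bp. By highest signal the order was the opposite, at 98.7, 97.8 and 91.4. In ZYX, which encodes the tension-sensing LIM protein zyxin, SMC1 (control chr7:143380259-143381751) stood at 81.2, 39 and 82.4. CTCF (control chr7:143379339-143381990) stood at 92.9, 95.6 and 84.4 with summits at -975, -974 and -976 bp. These CTCF summits were at the edge of the 1 kb limit and near a start of FAM131B-AS2.

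TLN1, the integrin activator talin, had SMC1 at the 5′ end (control chr9:35731804-35733494) at percentiles 93.4, 79.9 and 78.7, and CTCF in senescence alone (chr9:35732040-35733563, percentile 39.6). In control and ICM a CTCF peak of 7049 and 7487 bp with its summit at 2249 and 2222 bp covered the same 5′ end. The senescent list holds narrower peaks there, with summits at -181, 2273 and 3671 bp. CTCF was therefore listed over the TLN1 5′ end in all 3 conditions, and its assignment to the end turned on where the summit fell. A start of the coding gene CREB3 lay within 1 kb of the 5′ end SMC1 summits in all 3 conditions. The senescent CTCF summit at -181 bp also lay within 1 kb of it.

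PXN, the adaptor paxillin, had weak SMC1 at the 5′ end in control (chr12:120265792-120266466, percentile 5.78) and ICM (17.7), and CTCF there in ICM at the bottom of the list (chr12:120265788-120267424, percentile 0.706). Its strong peaks were in the body, where SMC1 at 34927, 34968 and 34955 bp stood at 98.0, 97.3 and 99.6. Between 30752 and 30809 bp, CTCF and SMC1 summits coincided in all 3 conditions. PDLIM5 had SMC1 at the 5′ end in control alone (chr4:94451557-94452400, percentile 39.6).

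PDLIM7, an adaptor that links kinases to actin, had SMC1 at the 5′ end in control (chr5:177495504-177498032, percentile 94.7) and ICM (66.6). In senescence the summit lay at 1816 bp in a peak of 2929 bp with a percentile of 98.5, so the gene left the 5′ end count while its peak stayed strong. It also held the CTCF peaks of highest rank of the whole set in control (chr5:177493855-177498524, percentile 98.5) and in senescence (chr5:177500254-177501744, percentile 98.0). The latter, at -3464 bp, coincided with SMC1.

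Of the genes for monomer and filament turnover, CFL1, the severing protein cofilin, kept SMC1 at the 5′ end in all conditions (control chr11:65857906-65858582), at percentiles 47.5, 43.7 and 2.98. Its strongest peaks lay upstream at a start of MUS81, where CTCF stood at 97.6, 98.4 (chr11:65856580-65861966, the highest CTCF rank of the set in ICM) and 96.1. PFN1, the monomer carrier profilin, had SMC1 at the 5′ end in control alone (chr17:4948044-4949328, percentile 39.2), and TMSB10, a monomer-sequestering thymosin, in control (chr2:84905074-84906055, percentile 21.6) and ICM (52.6). The PFN1 summit also lay within 1 kb of a start of the coding gene ENO3. None of CFL1, PFN1 and TMSB10 had a CTCF summit within 1 kb of the 5′ end. The control and ICM CTCF peaks of CFL1 still covered its start, with summits at -2272 and -2260 bp.

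VIM, the intermediate filament vimentin of fibroblasts, had SMC1 at the 5′ end in all conditions (control chr10:17228196-17230411), at percentiles 98.8, 98.2 and 92.1. CTCF was there in control (chr10:17226300-17229151, percentile 40.4) and ICM (88.5) and nowhere in the senescent window. AHNAK, a giant scaffold protein at the cell cortex, had the highest-ranked member peak in each SMC1 list. It lay upstream, at chr11:62552974-62554455 in control, at chr11:62553000-62554362 in ICM and at chr11:62552974-62554280 in senescence, with percentiles 99.6, 99.8 and 99.8. Total signals were 32824, 25653 and 21407 and are not comparable between the lists. At the 5′ end SMC1 was assigned in senescence alone (chr11:62544479-62546572, percentile 91.9, summit 674 bp). Control and ICM had summits at 1095 and 1189 bp, at percentiles 92.0 and 89.5, so the same area was strongly listed in all 3.

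The 4 genes induced through YAP and TEAD had SMC1 at the 5′ end in 3, 4 and 2 cases. CCN2 (CTGF), a matrix protein and the standard readout of YAP, had SMC1 at percentile 98.1 in control (chr6:131949752-131951617) and 99.6 in ICM, with both summits at -73 bp. In senescence the summit lay at 1431 bp, in a peak of 2645 bp that still spanned the start and stood at 93.6. CTCF was at the CCN2 5′ end in control (chr6:131949742-131951827, percentile 35.2) and ICM (91.2), and its senescent summit was at 1087 bp with a percentile of 13.2.

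CCN1 (CYR61), the sister matrix protein, had SMC1 at the 5′ end in control (chr1:85580095-85581907, percentile 77.4) and ICM (90.4) and CTCF in ICM (chr1:85580590-85585260, percentile 88.4). In senescence its SMC1 summits lay at -2866 and 3558 bp, at 43.8 and 60.6, and its window held no CTCF. ANKRD1, a stretch-induced cofactor, went the other way, with SMC1 at the 5′ end in ICM (chr10:90921058-90921846, percentile 11.7) and senescence (29.0) and not in control. AMOTL2, an angiomotin that feeds back on YAP, had SMC1 at the 5′ end in all 3 lists (control chr3:134374164-134375440), at 91.1, 87.0 and 21. Its body peak at 17404, 17417 and 17413 bp held percentiles of 81.5, 90.4 and 87.5. The low senescent rank of AMOTL2 was therefore at its 5′ end and not at that body peak.

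**Figure D4:**
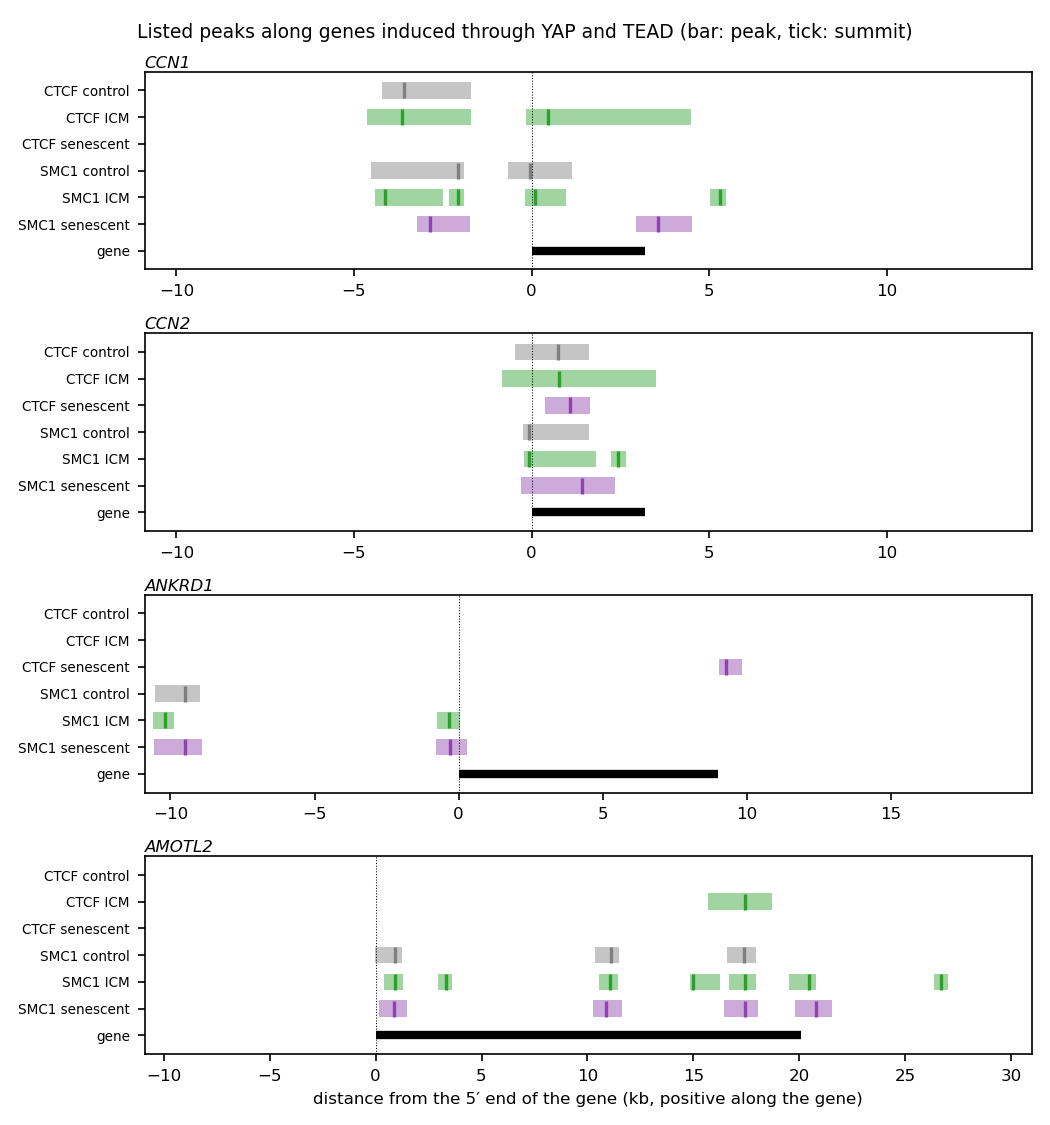
Listed peaks along CCN1, CCN2, ANKRD1 and AMOTL2, by distance from the 5′ end in kb (horizontal axis) and by peak list (rows). Shaded bars are peaks, ticks their summits and the black bar the gene. The SMC1 summit of CCN2 is at -73 bp in control and ICM and at 1431 bp in senescence, while the SMC1 peak of ANKRD1 at the start appears in the ICM and senescent rows.

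Across the set, 15 of 39 genes had SMC1 at the 5′ end in all 3 lists (17.6% of coding genes). They were ACTA2, ACTN1, FLNC, MYH9, MYH10, MYL9, TPM1, CNN3, TAGLN2, VCL, ZYX, TLN1, CFL1, VIM and AMOTL2. CTCF was there in all 3 lists for MYL9, TAGLN and ZYX (6.84% of coding genes), which is close to the background share. From control to senescence, SMC1 left the 5′ end list at 13 genes (11.9% of coding genes). These were ACTG1, ACTN4, MYL6, MYL12A, MYL12B, TPM2, PXN, PDLIM5, PDLIM7, PFN1, TMSB10, CCN1 and CCN2.

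As a share of the genes listed in control, those 13 were 43.3%, against 37.7% for coding genes. For 9 of the 13 the window still held a senescent SMC1 peak, and with whole peaks in place of summits the number was 9 genes, so part of it reflects where the summit lay. SMC1 was listed in senescence and not in control at ACTB, AHNAK and ANKRD1 (2.57% of coding genes). The share of SMC1 entries missing in senescence was thus near that of coding genes.

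CTCF left the 5′ end list of ACTB, CNN3, VIM and CCN2 between control and senescence (1.71% of coding genes). They were 57.1% of the 7 genes listed in control, against 19.5% for coding genes. With whole peaks in place of summits, CTCF was at 13 genes in control and 3 of them were missing in senescence. The contrast thus rests on few genes and on where the summit lay, and no whole-peak share was computed for coding genes. CTCF was listed in senescence and not in control at ACTA2 and TLN1 (2.49%). Between control and ICM, no gene left the CTCF list (6.21% of the control set for coding genes) and 5 left the SMC1 list (LIMA1, MYL6, TAGLN, PDLIM5 and PFN1, 16.7%, against 22.1%). Between control and ICM the CTCF count was higher by 4 genes, which were ACTA2, TAGLN2, PXN and CCN1, with percentiles from 0.706 to 88.4.

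The CTCF peaks at these 5′ ends were wide and flat. Their median total-signal percentiles were 47.6, 85.5 and 39.6, but by highest signal the medians were 6.24, 25 and 2.82. Over the CTCF peaks at all coding 5′ ends the medians were 57.2, 54.0 and 53.5 by total and 48.5, 42.4 and 41.0 by highest signal. VIM in ICM is the clearest case, with 88.5 by total and 15.7 by highest signal, and ZYX is among the exceptions, with 92.9 and 83.9 in control. The SMC1 peaks at the 5′ ends had medians of 81.2, 73.6 and 78.5 by total and 63.5, 56.2 and 30.2 by highest signal, against 60.5, 60.9 and 59.7 by total and 52.9, 47.6 and 49.7 by highest signal over all coding 5′ ends.

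**Figure D5:**
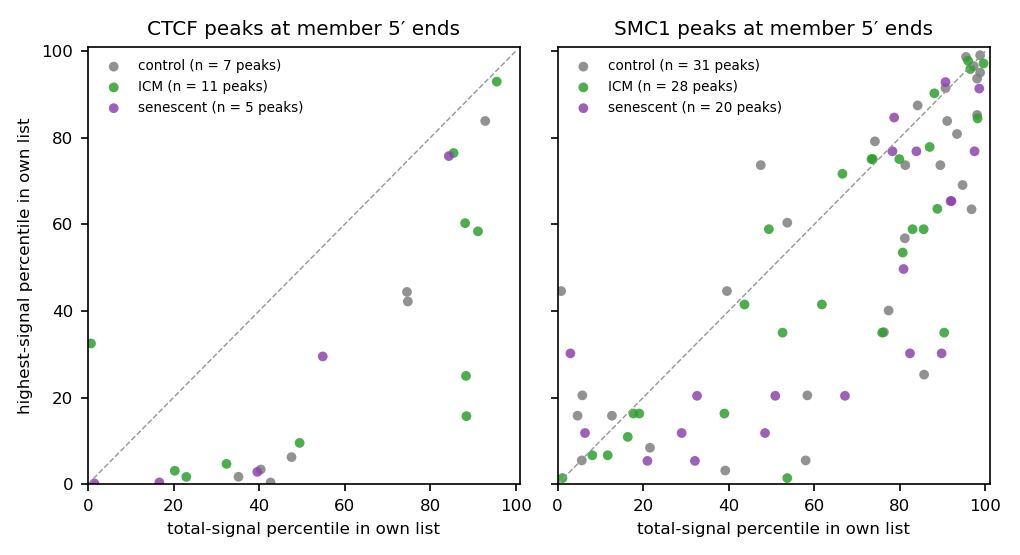
Total-signal percentile (horizontal axis) against highest-signal percentile (vertical axis) of each peak at a 5′ end of the 39 genes, within its own list. Points are peaks, coloured by condition, and the dashed line marks equal percentiles. CTCF points lie mostly below the line, with medians by highest signal of 6.24, 25 and 2.82.

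Coinciding summits of CTCF and SMC1 (100 bp windows around the summits that overlap) were found in 8 windows in control, 11 in ICM and 10 in senescence, against 13.8%, 17.3% and 16.2% of coding genes. AHNAK, MYL12A, MYL9, PDLIM7, PXN and TLN1 had them in all 3 conditions. Of the SMC1 peaks in the windows 11.3%, 14% and 16.3% coincided with CTCF by summit, against 15.4%, 17.6% and 23.1% of all SMC1 peaks. With whole peaks the shares that overlapped CTCF were 32%, 43% and 31.5%, against 25.2%, 30.2% and 33.9%. Summits shared by all 3 lists of an antibody made up 51.7%, 41.0% and 41.7% of the CTCF peaks in the windows. For SMC1 peaks the shares were 29.9%, 29.8% and 31.5%. Such shares were not computed over the whole lists, so they cannot be called particular to these genes. For SMC1 the shared summits had higher median percentiles than peaks whose summit coincided with none in the other lists. The medians were 85.8 against 38.5 in control, 86.3 against 38.6 in ICM and 76.6 against 43.4 in senescence. Of the latter SMC1 peaks (26, 42 and 45), only 12, 15 and 16 had no overlapping peak in another SMC1 list. For CTCF the same medians were 69.9 against 55.8, 81.6 against 33.4 and 70.7 against 15.6.

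Another 60 genes of the pathway, integrin signalling components, SRF, MRTF, YAP and TEAD factors and further actin regulators, were counted in the same way. SMC1 was at the 5′ end of 34, 30 and 21 of them, and CTCF at 6, 7 and 6. The SMC1 shares were above those of coding genes in every condition, with 56.7% against 31.6% in control. The CTCF shares were close to those of coding genes in every condition, with 11.7% against 12.6% in ICM. The SMC1 counts of the 60 genes fell in the order control, ICM, senescent, as for the 39 genes. Coding genes showed that order too (31.6%, 27.6% and 22.3%), so it was not particular to the pathway. Both antibodies were at the 5′ end in all 3 conditions for 4 of the 60 genes, as for 4.67% of coding genes. These were GSN (gelsolin, which severs filaments), LIMK2 (a kinase that inactivates cofilin), RHOC and SRF.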

How the data were processed

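CTCF and SMC1 CUT&Tag peaks were measured in 6 IMR90 libraries, 1 for each antibody and condition. Per the labels and the methods of the study, the authors aligned reads with Bowtie2 (2.3.4.1) to GRCh38, used Picard (2.20.7) and deepTools, and called peaks with SEACR (1.3) in stringent mode at the top 1%, library by library and without pooling. E. coli reads are described as a spike-in and a motif filter is described for CTCF. The deposited signal values (total and highest coverage per peak) are whole numbers, no common scale between lists was established, and depth is unknown. They were ranked within each list only.

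Gene positions came from RefSeq (GRCh38.p14), with strand from RefSeq start windows or, for 4 genes (ACTB, CCN1, MYL9 and TAGLN), from GENCODE v44 by symbol. Background was the 19675 of 20037 coding genes with a strand (98.2%). A peak was at an end when its summit lay within 1 kb of it. Coordinates are 1-based. For each 5′ end peak they are given for the control list, or for the first list that holds it. Start windows were found for 35 of the 39 genes. Sequence is printed for those of the strongest control SMC1 peaks with a searched motif whose RefSeq start is the outermost one, so CNN3 and AMOTL2, which met the rest of the rule, are left out. Of the 250 bases at CNN3, SMC1 peaks covered 250 in control, 232 in ICM and 0 in senescence. At AMOTL2 they covered all 250 in each condition. All 39 genes are described. The genes and lists were chosen with earlier results of these data known. Scripts used Python 3.11.15 with pandas 2.3.3 and numpy 2.4.6 and were tested on simulated data. Alternatives were other distances, window widths, whole peaks, equal-length lists, stronger peaks and all RefSeq starts. Most genes of the wider pathway list were counted and are not named.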

Additional observations from a re-analysis of the deposited data

Results flagged for a closer look

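The change from control to ICM went in opposite directions for the 2 antibodies. The number of genes with CTCF at the 5′ end was higher in ICM by 4, and for SMC1 the difference (ICM minus control) was -3. Over all protein-coding genes the share with a 5′ end peak also went up for CTCF, from 8.76% to 12.6%. For SMC1 it also went down, from 31.6% to 27.6%. With 1 library per group the difference between control and ICM was not tested. The CTCF list was also longer in ICM (6728 against 4673 peaks), as was the SMC1 list (17809 against 14883), and the p number of the CTCF control differed from that of the CTCF library with ICM. Their part in the counts was not tested beyond the equal-length lists, where the CTCF count in ICM was 8 by total signal and 5 by highest signal, against 7 in control by both.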

How the results depend on the processing

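Of 92 alternative values, 70 stayed within 1.5 times the count reported and 22 moved further. With 500 bp as the limit at the 5′ end, CTCF was at 2, 6 and 2 genes (control, ICM and senescent) and at 0 genes in all 3 lists. With 2 kb, senescent CTCF was at 10 genes, CTCF in all 3 lists at 7, and 8 genes lost SMC1 between control and senescence. With the whole peak in place of its summit, CTCF was at 13, 18 and 11 genes and at 10 in all 3 lists. In lists of equal length (4673 CTCF and 12927 SMC1 peaks), senescent CTCF was at 2 genes by total signal and, by highest signal, CTCF was at 5 in ICM and 1 in senescence. With the upper part of each list by total signal, from its median, CTCF was at 3, 6 and 2 genes and senescent SMC1 at 13. In the gene body alone, senescent CTCF was at 13 genes. Where whole peaks were overlapped, CTCF and SMC1 coincided at 19, 24 and 17 genes. SMC1 counts at the 5′ end kept the order control, ICM, senescent except in equal-length lists by highest signal (27, 20 and 20). No paired analysis was possible because each group has 1 library and no result comes from a test.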
